A study of Mus musculus with 8 samples.

Results

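The genes described here encode the nuclear subunits of the 5 complexes of oxidative phosphorylation in mouse cells. They were chosen by name: array probes whose gene name starts with Nduf followed by a, b, c, s or v (complex I), is Sdha to Sdhd (complex II), or starts with Uqcr (complex III), Cox4 to Cox8 (complex IV) or Atp5 (complex V). The patterns took 126 of 55681 probes and 90 of 36373 gene names. Of these, 83 genes encode structural subunits and 7 do not, namely the assembly factors Ndufaf1 to Ndufaf4, Cox4nb (now Emc8), Atp5s (now Dmac2l) and Atp5sl (now Dmac2), which were kept apart. Of the 83 subunit genes, 80 had a probe bright enough to test, through 114 probes; the isoform genes Cox6a2, Cox7b2 and Cox8b did not.

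Messenger RNA was measured in RGC-like neural progenitor cells made from mouse embryonic stem cells, on day 6 of neural induction. One group of 4 arrays carried RNA from control cells (Control d6) and the other 4 from cells with a knockdown (KD d6). The series' design text names the agents as shCtrl and shZrf1, hairpin RNAs of which the second targets Zrf1, called Dnajc2 in current annotation, a ribosome-associated J-domain chaperone that also acts in chromatin. The question is what differs in these cells when Zrf1 is depleted. The stem cell line, the number of hairpins and whether the 4 samples of a group are separate cultures are not stated in the labels, so p-values measure only the spread between these arrays, which may be technical. The labels number the knockdown arrays as 4 replicates, while the deposited names mark them 2, 2_TR, 3 and 3_TR; the meaning of TR is not stated, and the 4 may be repeats of fewer samples. With arrays of a shared number averaged, 14 subunits were called higher and 12 lower, against 19 and 20 below.

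Complex I takes electrons from NADH, complex II takes them from succinate, complex III passes them to cytochrome c, complex IV passes them to oxygen, and complex V uses the proton gradient to make ATP. Most subunits are encoded in the nucleus and a small set in mitochondrial DNA, and several subunits of complexes I, IV and V have paralogues used in particular tissues or at low oxygen. Differentiation of stem cells towards neural cells is known to bring a shift from glycolysis towards oxidative phosphorylation.

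Between 53.4% and 60.3% of the 59305 spots of an array were well above background, no probe was saturated, and the 8 arrays lay on 3 slides, each with both groups; their number limits the precision. Dnajc2 was 18.3-fold lower in the knockdown (change -4.19, limma adjusted p = 1.38e-07), with every knockdown array below every control array. The labelled cell type was checked on 7 neural progenitor markers. Their mean log2 signal was 3.1 to 3.19 on control arrays and 0.30 to 0.63 on knockdown arrays, and 6 of the 7, among them Fabp7 and Hes5, fell. The mean of the endoderm markers was -3.23 to -3.18 on control and -1.31 to -1.11 on knockdown arrays, and 6 of 6 tested rose. Of 3 tested mesoderm markers 2 rose, of 5 fibroblast or feeder markers 3 rose, of 5 neuron markers 1 rose and 3 fell, and of 5 pluripotency markers 1 rose and 3 fell. Among all 21749 tested genes 29.1% rose and 28.5% fell, so the counts of these short lists carry little weight. The mean of the mesoderm markers was -3.32 to -2.74 on control and -1.69 to -1.38 on knockdown arrays. That of the fibroblast or feeder markers was -0.89 to -0.71 and 0.31 to 0.43. For neuron markers it was 0.08 to 0.25 and -0.90 to -0.54, and for pluripotency markers 2.32 to 2.72 and 1.57 to 1.74. Mean signals of endoderm, mesoderm and fibroblast or feeder markers thus rose with the knockdown. Those of neural progenitor, neuron and pluripotency markers fell. The part of cell types in the results on subunits was not tested. Fewer cells of a type and less RNA per cell cannot be told apart in bulk RNA.

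A level below is a log2 signal relative to the 75th percentile of its array, and a change is the knockdown mean minus the control mean of 4 arrays each. Levels of different probes are not compared. A gene is called where limma's p, adjusted by Benjamini-Hochberg over all 29090 tested probes, was under 0.05, and the brightest tested probe stands for a gene. Of the 80 subunit genes, 19 rose, 20 fell and 41 were not called, so 48.8% were called, against a background of 57.6% of all 21749 tested genes (29.1% higher and 28.5% lower). By probe, 59 of the 122 tested member probes were called, against 57.1% of all probes (29% higher and 28.1% lower). Subunit transcripts are abundant: 64 of the 80 were among the 2175 brightest tested genes, of which 59.4% were called, 29% higher and 30.4% lower. The share of subunits called was thus below both backgrounds.

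The changes of subunits were small. Of the 80 genes, 70 (87.5%) changed by less than 0.5 on the log2 scale in either direction, against 56.4% of all tested genes and 74.9% of the 2175 brightest genes. Only Ndufab1 changed at least 2-fold, which is 1.25% of the subunits, against 18.2% of all genes and 4.60% of the 2175 brightest genes. The median size of a change without its sign was 0.22 for subunits, 0.42 for all genes and 0.29 for the 2175 brightest genes. The groups did not overlap on the 8 arrays for 40 of the 80 subunits; across all genes this held for 55%.

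**Figure D1:**
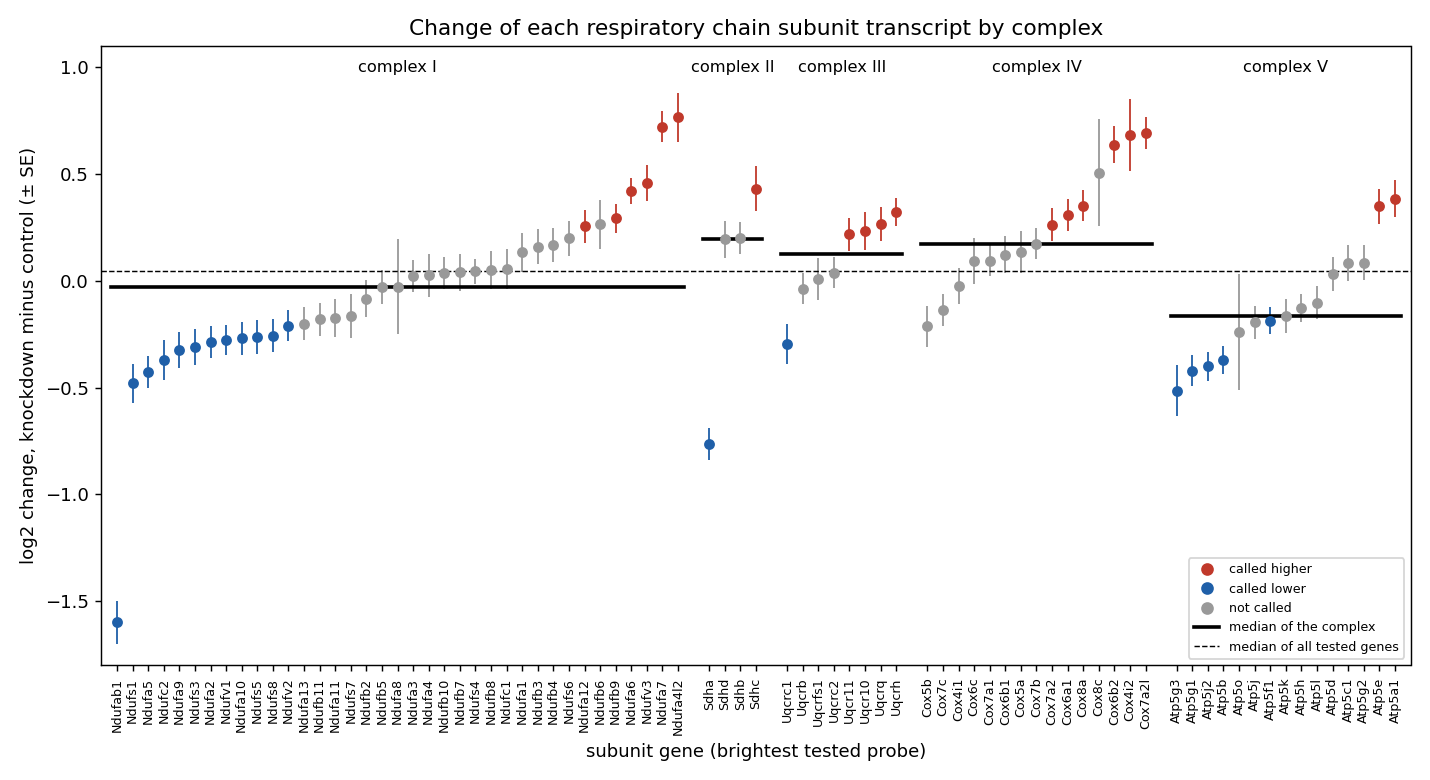
Log2 change of the tested subunit genes, all but 1 of the 80 (knockdown minus control, ± SE, 4 arrays a group), ordered within complexes I to V. Red points were called higher, blue lower and grey not called; thick lines mark each complex's median and the dashed line the median of all tested genes, 0.04. Ndufab1, at -1.60, lies apart from all other subunits, and complex V has the lowest median.

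The complexes differed in the direction of their medians. The median change was -0.03 for the 38 genes of complex I, 0.20 for the 4 of complex II, 0.13 for the 8 of complex III, 0.17 for the 15 of complex IV and -0.17 for the 15 of complex V, beside 0.04 for all tested genes and 0.08 for the 2175 brightest genes. The 8 genes of complex III leave out Cyc1, cytochrome c1, which is also a subunit of that complex. The name patterns do not take Cyc1, and its change of -0.19 would lower the complex III median. Called genes split as 6 higher and 13 lower in complex I, 1 and 1 in complex II, 4 and 1 in complex III, 6 and 0 in complex IV, and 2 and 5 in complex V. The share called was 50%, 50%, 62.5%, 40% and 46.7% in complexes I to V. Among all tested genes it was 57.6% (29.1% higher and 28.5% lower). Whether these splits differ from that background was not tested. The counts of complex III rest on single arrays: without control 1, control 2, knockdown 1 or knockdown 4 only 1 of its genes was higher, and without control 3 complex II had 3 higher. With slide as a block these counts became 6 and 13, 1 and 1, 2 and 1, 6 and 0, and 2 and 6.

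The same pattern was read array by array, as the median over a complex's subunits of the signal minus the control mean. For complex IV the 4 control arrays gave -0.08, 0.01, 0.05 and 0.01 and the 4 knockdown arrays 0.29, 0.10, 0.21 and 0.22. For complex V the control arrays gave -0.10, -0.02, 0.09 and 0.04 and the knockdown arrays -0.10, -0.19, -0.14 and -0.23. The groups were apart for complexes II and IV, touched for complex V and overlapped for complexes I and III.

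**Figure D2:**
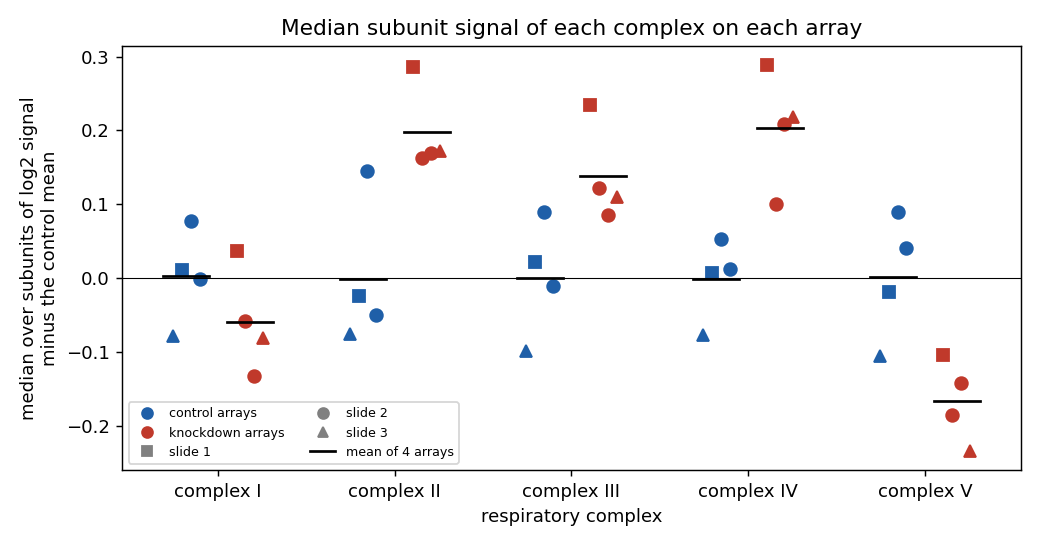
Median over the subunits of each complex of the log2 signal minus the control mean, for each of the 4 control (blue) and 4 knockdown (red) arrays; the marker shape gives the slide and the black line the mean of 4 arrays. Knockdown arrays lie above all control arrays for complex IV (0.10 to 0.29 against -0.08 to 0.05) and between -0.23 and -0.10 for complex V.

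The sign of these medians depended on how arrays were scaled. With each array scaled by its own median, the all-gene median went from 0.04 to -0.13, and the share of called genes that were higher went from 50.5% to 37.3%. Complex medians then were -0.20, 0.03, -0.04, 0.00 and -0.34 for complexes I to V. Quantile normalization gave 0.07, 0.27, 0.20, 0.20 and -0.10, with an all-gene median of 0.01, and the authors' deposited log2 values gave 0.03, 0.23, 0.20, 0.17 and -0.12. Relative to the all-gene median of the same scaling, complex V stayed between -0.21 and -0.11, complex IV between 0.13 and 0.19, complex III between 0.08 and 0.19 and complex II between 0.15 and 0.27, while complex I ran from -0.07 to 0.06 and so lay on either side of it. Under each of the 5 scalings 12 of the 15 complex IV genes, and 4 of the 15 complex V genes, lay above the all-gene median.

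**Figure D3:**
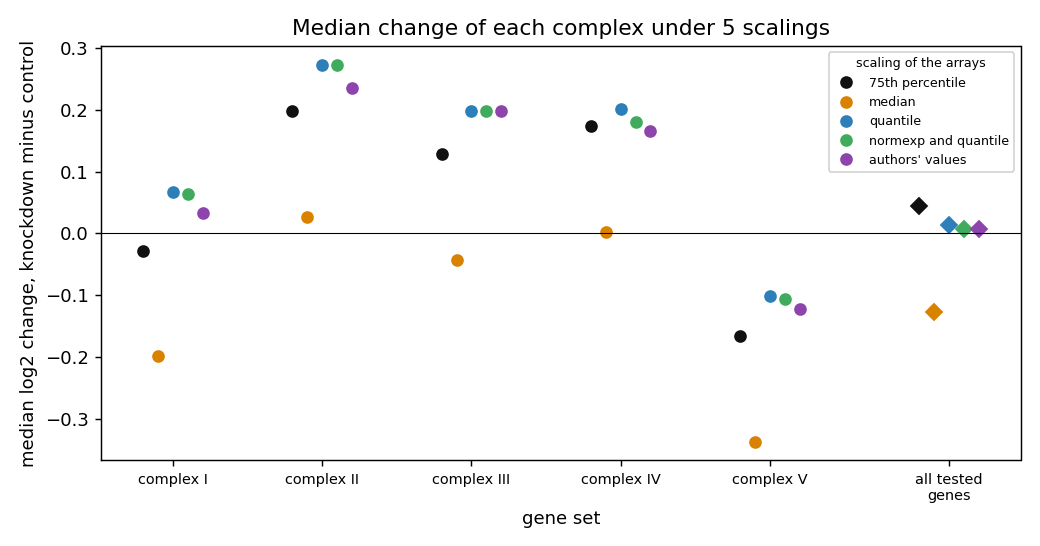
Median log2 change (knockdown minus control) over the tested subunits of complexes I to V, and over all tested genes (diamonds), under 5 scalings of the arrays given by colour. Median scaling (orange) lowers every median, including that of all genes to -0.13, and complex V lies below the all-gene median under each scaling.

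Some genes kept their call in all 20 alternative fits counted here. In each of the 20 alternative fits, which changed the scaling, the filter, the probe summary, the block or left out 1 array, 5 subunits stayed called higher (Ndufa4l2, Ndufa7, Cox4i2, Cox6b2 and Cox7a2l) and 9 stayed called lower (Ndufab1, Ndufs1, Ndufa5, Ndufc2, Sdha, Atp5b, Atp5g1, Atp5g3 and Atp5j2). The other called subunits lost their call in at least 1 fit. No called subunit changed direction in any of the 20. The fits on the arrays of some slides only, given below, are not among the 20. Ndufs1, Ndufa5, Ndufc2, Cox4i2, Atp5b, Atp5g1 and Atp5j2 were not called in both of those.

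The array reads each transcript through probes of 60 bases. Those of 4 genes, read from the deposited files, are printed to show what was measured. They are in lower case, 5′ to 3′ in the sense of the transcript, and none of their bases is marked. Positions are on mouse build mm9; whether a probe lies in coding sequence or a UTR was not worked out here. The second Ndufa5 probe lies at chr6:24472660-24472719, the second Sdhb probe chr4:140529606-140529665, the Uqcrc1 probe chr9:108851008-108851487 and the Cox4i1 probe chr8:123197924-123197983.
Ndufa5: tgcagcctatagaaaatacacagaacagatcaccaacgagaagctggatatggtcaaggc
Sdhb: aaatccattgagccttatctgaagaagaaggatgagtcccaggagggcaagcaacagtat
Uqcrc1: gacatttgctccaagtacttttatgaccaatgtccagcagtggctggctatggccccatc
Cox4i1: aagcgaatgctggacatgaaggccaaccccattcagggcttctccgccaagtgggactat

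For the genes below with the largest changes only the first 30 of 60 bases are given. The Ndufab1 probe lies at chr7:129231667-129231726, the Sdha probe at chr13:74460310-74460369 and 2 overlapping Cox7a2l probes at chr17:83901272-83901331 and chr17:83901291-83901350, all on the minus strand of mm9.
Ndufab1: tgtaaatggctactttaaatcccagggtag
Sdha: ccagactttgtctctttattcttgtgcagt
Cox7a2l: cctttaataatgctgtggctttacgttatg
Cox7a2l, second probe: cagctgtgtcaggacttctcctttaataat

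In complex I, the 7 nuclear core subunits, which carry the flavin and the iron-sulfur clusters and do the electron transfer, leaned one way. Of the 7, 6 fell and none rose, beside 28.5% lower and 29.1% higher among all tested genes. Their median change was -0.28, and each of the 7 was below 0 under all 5 scalings. Only Ndufs1 and Ndufs3 among them were called lower under all 5 scalings. Of the 30 other subunits besides the isoform Ndufa4l2, which surround that core, 5 rose and 7 fell, with a median of 0.03. Whether the core differs from the rest was not tested.

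Among core subunits, Ndufs1, which holds several of the iron-sulfur clusters, was at 5.15, 5.13, 5.21 and 4.99 on control arrays 1 to 4 and at 4.82, 4.68, 4.46 and 4.59 on knockdown arrays 1 to 4. Every knockdown array was lower. Its change was -0.48 ± 0.09 (SE; limma adjusted p = 0.0023). Ndufs3 (-0.31), Ndufv1 (-0.28), Ndufs8 (-0.26) and Ndufv2 (-0.21) also fell. The calls of Ndufs3, Ndufv1, Ndufs8 and Ndufv2 were lost in 2, 4, 9 and 11 of the 20 alternative fits.

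The largest change of any subunit was that of Ndufab1, the mitochondrial acyl carrier protein, which is both a part of complex I and a carrier for mitochondrial fatty acid synthesis. Its levels were 2.02, 2.05, 2.28 and 2.09 on control arrays and 0.73, 0.52, 0.40 and 0.40 on knockdown arrays. The groups lay far apart compared with their spread (control SD 0.12, knockdown SD 0.16, n = 4 each). The fall was 3.03-fold, a change of -1.60 ± 0.10 (SE; limma adjusted p = 4.04e-06), and it was -1.31, -1.73 and -1.62 within slides 1, 2 and 3.

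Ndufa5, an accessory subunit, was at 5.79, 5.87, 5.93 and 5.81 on control arrays and at 5.52, 5.29, 5.40 and 5.49 on knockdown arrays, again without overlap. The change was -0.43 ± 0.07 (SE; limma adjusted p = 0.00127), and the second probe, whose sequence is printed above, gave -0.49. Ndufc2 (-0.37), Ndufa9 (-0.32), Ndufa2 (-0.29), Ndufa10 (-0.27) and Ndufs5 (-0.26) also fell; the calls of Ndufa9, Ndufa10 and Ndufs5 were lost in 4, 5 and 5 of the 20 alternative fits.

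Other accessory subunits of complex I rose. Ndufa7 was at 7.23, 7.27, 7.40 and 7.38 on control arrays and at 8.15, 8.04, 7.94 and 8.02 on knockdown arrays. All knockdown arrays were higher, by 1.65-fold on average, with a change of 0.72 ± 0.07 (SE; limma adjusted p = 6.14e-05). Ndufv3, a small accessory subunit, was at 5.98, 5.81, 6.08 and 6.06 on control arrays and at 6.54, 6.39, 6.37 and 6.46 on knockdown arrays. It rose by 0.46 ± 0.08 (SE; limma adjusted p = 0.00164) on its brighter probe and by 0.75 on the other. Ndufa6 (0.42), Ndufb9 (0.29) and Ndufa12 (0.25) rose as well, with calls lost in 1, 1 and 5 of the 20.

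Ndufa4l2, a paralogue of Ndufa4 that is induced at low oxygen in many cells, was at -1.01, -1.02, -0.99 and -1.09 on control arrays and at 0.07, -0.39, -0.41 and -0.31 on knockdown arrays. The 4 controls lay close together and all knockdown arrays were higher, knockdown 1 most of all. The change was 0.76 ± 0.11 (SE; limma adjusted p = 0.000511). Ndufa4, which the name pattern counts with complex I although the protein is now placed in complex IV, was at 5.66, 5.76, 5.42 and 5.80 on control and at 5.60, 5.60, 5.77 and 5.77 on knockdown arrays, with a change of 0.03 (limma adjusted p = 0.856).

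Complex II has only 4 subunits, which also serve the tricarboxylic acid cycle, and its members moved apart. Sdha, the flavoprotein that oxidises succinate, was at 4.72, 4.82, 4.95 and 4.81 on control arrays and at 4.12, 4.09, 4.08 and 3.94 on knockdown arrays. All knockdown arrays were lower, by 1.70-fold on average, with a change of -0.77 ± 0.08 (SE; limma adjusted p = 4.86e-05). Sdhc, a membrane anchor, was at 4.50, 4.51, 4.53 and 4.42 on control and at 5.15, 5.03, 4.68 and 4.83 on knockdown arrays. It rose by 0.43 ± 0.11 (SE; limma adjusted p = 0.00829), and its second probe gave 0.39.

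Sdhb, the iron-sulfur partner of Sdha, was at 6.35, 6.37, 6.58 and 6.35 on control and at 6.68, 6.52, 6.60 and 6.65 on knockdown arrays. Its brighter probe changed by 0.20 and was not called (limma adjusted p = 0.0546), while the probe printed above changed by 0.22 and was called. Sdhd, the other anchor, changed by 0.19 (limma adjusted p = 0.0858). The fall of Sdha relative to Sdhb within an array was -0.97, with no overlap of the groups.

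In complex III, 4 of 5 small subunits and 1 of 2 core proteins were called, the former higher and the latter lower. With slide as a block 2 of the 5 were higher. Among all tested genes 29.1% were higher and 28.5% lower, so counts in sets this small carry little weight. Uqcrh, the hinge protein beside cytochrome c1, was at 7.38, 7.52, 7.54 and 7.46 on control and at 7.85, 7.76, 7.75 and 7.81 on knockdown arrays, a change of 0.32 ± 0.07 (SE; limma adjusted p = 0.00306). Its second probe, which overlaps the first, gave 0.34. Uqcrq was at 6.98, 7.05, 7.25 and 7.11 on control and at 7.43, 7.25, 7.38 and 7.39 on knockdown arrays, a change of 0.27, and Uqcr10 was at 6.29, 6.46, 6.50 and 6.39 against 6.82, 6.55, 6.53 and 6.68, a change of 0.23. Uqcr11 rose by 0.22. For these 3 genes the lowest knockdown array lay close to the highest control array, and their calls were lost in 9, 12 and 12 of the 20 alternative fits.

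Uqcrc1, a core protein related to mitochondrial processing peptidases, was at 4.12, 4.27, 4.28 and 4.01 on control and at 3.95, 3.70, 3.89 and 3.96 on knockdown arrays. It fell by 0.30 ± 0.09 (SE; limma adjusted p = 0.0258), and the call was lost in 10 of the 20 alternative fits. Uqcrc2 (0.04), the Rieske protein Uqcrfs1 (0.01) and Uqcrb (-0.04) were not called.

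In complex IV, 6 of 15 genes rose and none fell, but with median scaling 3 were higher and 2 lower. Of the 6, 3 are paralogues or attached factors and 3 are general subunits. Without the paralogues and Cox7a2l, 3 of 10 genes rose (30%), close to the 29.1% of all tested genes called higher. The median of these 10 was 0.13, and 7 of them lay above the all-gene median. The largest rise was that of Cox7a2l, a factor that joins complexes III and IV into supercomplexes. Its levels were 6.58, 6.75, 6.78 and 6.68 on control and 7.50, 7.31, 7.34 and 7.39 on knockdown arrays, without overlap. The change was 0.69 ± 0.07 (SE; limma adjusted p = 8.61e-05), and the other 2 probes gave 0.70 and 0.77. Cox7a2, the general subunit of that family, was at 5.70, 5.86, 5.88 and 5.90 against 6.12, 5.97, 6.20 and 6.11 and rose by 0.26. Cox7a1, the paralogue of heart and skeletal muscle, was at 3.58, 3.64, 3.68 and 3.59 against 3.83, 3.69, 3.58 and 3.76, and its change of 0.09 was not called.

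Cox4i2, the paralogue of Cox4i1 known from lung and from low oxygen, was dim, at -1.34, -1.90, -1.68 and -1.69 on control and at -0.57, -1.14, -1.22 and -0.93 on knockdown arrays. All knockdown arrays were higher, and the change was 0.68 ± 0.17 (SE; limma adjusted p = 0.00828), but it was uneven over slides, at 1.33, 0.50 and 0.41. Cox4i1 was at 7.81, 7.86, 7.87 and 7.87 against 8.03, 7.82, 7.67 and 7.80, with a change of -0.02.

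Cox6b2, the paralogue of Cox6b1 known from testis, was at 2.77, 2.75, 2.64 and 2.55 on control and at 3.48, 3.27, 3.18 and 3.33 on knockdown arrays. It rose 1.56-fold, a change of 0.64 ± 0.09 (SE; limma adjusted p = 0.000344), with every knockdown array above every control array. Cox6b1 was at 4.21, 4.25, 3.96 and 4.25 against 4.28, 4.19, 4.31 and 4.38, and its change of 0.12 was not called.

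The general subunits Cox6a1 and Cox8a rose by smaller amounts, and Cox6a1 was called under only 1 of the 5 scalings, with a change as low as 0.091. Cox6a1 was at 8.25, 8.39, 8.40 and 8.31 against 8.79, 8.57, 8.57 and 8.65, a change of 0.31, and Cox8a at 7.38, 7.43, 7.48 and 7.43 against 7.90, 7.69, 7.71 and 7.83, a change of 0.35. Their groups did not overlap. Cox7b was at 6.83, 6.96, 7.06 and 6.97 against 7.19, 7.06, 7.10 and 7.17, a change of 0.17 that was not called, and so were Cox5a (0.13), Cox6c (0.09), Cox7c (-0.14) and Cox5b (-0.21). Cox8c, another testis paralogue, was well above background on only 2 of 4 control arrays, at -4.02, -3.77, -2.93 and -2.99 against -2.97, -2.72, -3.05 and -2.95, and was not called.

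In complex V, 2 of 3 c ring genes and 1 of 3 genes for other membrane subunits fell, while in the catalytic head and its stalk 2 of 5 rose and 1 fell. The other membrane genes, Atp5k (-0.17) and Atp5l (-0.10), were not called. Among all tested genes 57.6% were called, 29.1% higher and 28.5% lower, so counts in sets this small carry little weight. Whether the parts of complex V differ was not tested. Of the 3 genes for the c ring, the rotor through which protons pass, Atp5g3 was at 7.02, 7.13, 7.56 and 7.35 on control and at 6.73, 6.74, 6.84 and 6.67 on knockdown arrays, and Atp5g1 at 6.39, 6.42, 6.54 and 6.51 against 6.15, 6.08, 5.96 and 5.99. Neither overlapped. Atp5g3 changed by -0.52 ± 0.12 and Atp5g1 by -0.42 ± 0.07 (SE; limma adjusted p = 0.00608 and 0.00121). Atp5g2, which encodes the same mature c subunit, was at 8.23, 8.20, 8.37 and 8.17 against 8.46, 8.21, 8.26 and 8.39, and its change of 0.08 was not called.

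Atp5j2, the f subunit of the membrane part, was at 6.99, 7.18, 7.13 and 7.18 on control and at 6.74, 6.69, 6.73 and 6.70 on knockdown arrays. It fell by 0.40 ± 0.07 (SE; limma adjusted p = 0.000977), and its second probe gave -0.38. The 4 tested peripheral stalk genes, which hold the head still against the rotor, ran from -0.24 to -0.13; of these only Atp5f1, at -0.19, was called, and that call was lost in 13 of the 20 alternative fits.

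In the catalytic head, Atp5b, the beta subunit with the catalytic sites, was at 7.69, 7.79, 7.82 and 7.82 on control and at 7.48, 7.41, 7.41 and 7.34 on knockdown arrays and fell by 0.37 ± 0.06 (SE; limma adjusted p = 0.00135). Its partner Atp5a1, the alpha subunit, was at 5.26, 5.42, 5.57 and 5.50 against 5.79, 5.81, 5.96 and 5.73 and rose by 0.39 ± 0.09 (SE; limma adjusted p = 0.0058). Atp5e, the epsilon subunit, was at 7.51, 7.51, 7.54 and 7.51 against 7.98, 7.68, 7.84 and 7.97 and rose by 0.35. None of these groups overlapped. Atp5c1 (0.08) and Atp5d (0.03) were not called.

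**Figure D4:**
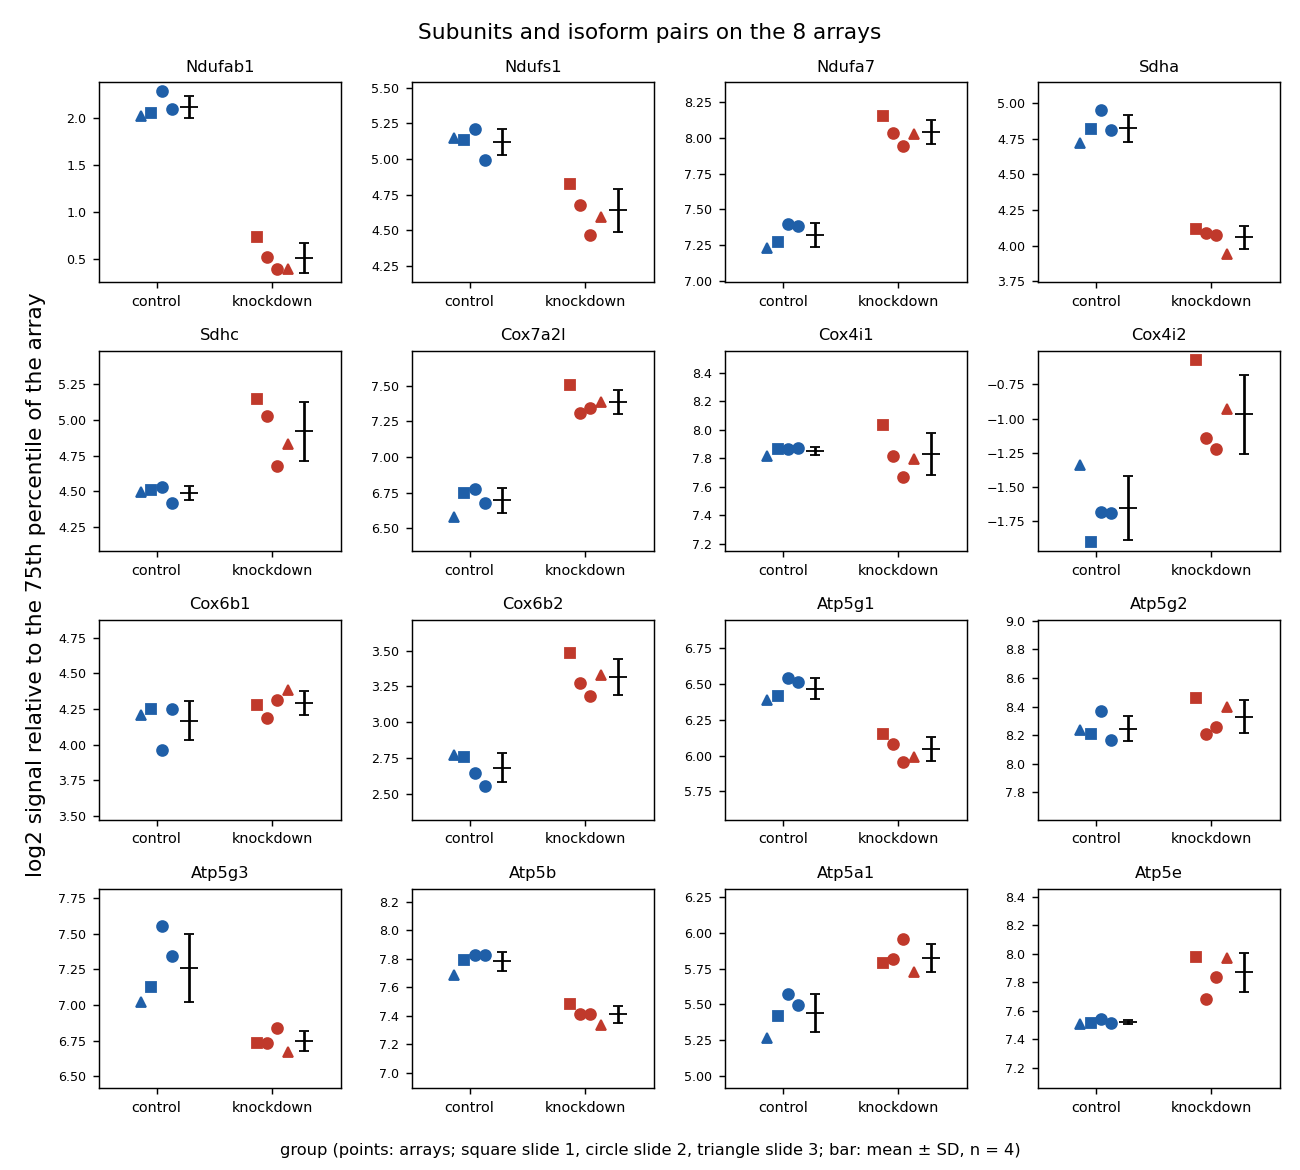
Log2 signal, relative to the 75th percentile of the array, of 16 subunit genes on the 4 control (blue) and 4 knockdown (red) arrays; marker shape gives the slide and bars show mean ± SD (n = 4). Every axis spans at least 1.4 log2 units. Ndufab1 falls from between 2.02 and 2.28 to between 0.40 and 0.73, Atp5a1 and Atp5b move in opposite directions, and Cox4i1 overlaps while Cox4i2 does not.

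Whether paralogues, and the partners Sdha and Sdhb, changed unequally was tested within arrays, by the difference of 2 genes' log2 signals and an exact two-sided permutation test over the 70 splits of 8 arrays, whose smallest possible p is 0.0286. Of 9 pairs, chosen with earlier results known, 7 reached that p (0.0367 after adjustment over the 9), all without overlap. The pairs were chosen on these same arrays, so these p-values are no independent evidence of unequal change. The splits also treat the knockdown arrays as separate samples, which is not known. The change was larger in Cox4i2 than in Cox4i1 by 0.71, in Cox6b2 than in Cox6b1 by 0.52, in Cox7a2l than in Cox7a2 by 0.43 and in Ndufa4l2 than in Ndufa4 by 0.74. It was lower in Atp5g1 and Atp5g3 than in Atp5g2, by -0.51 and -0.60, and lower in Sdha than in Sdhb. Cox7a1 and Cox7a2 differed by -0.17 (exact p = 0.0857), and Cox8c and Cox8a by 0.16 (exact p = 0.571), with overlap in both. A scaling by 1 value for each array cancels in these differences, but the other scalings do not. With quantile normalization 7 of the 9 pairs were called, with Cox7a1 and Cox7a2 in place of Ndufa4l2 and Ndufa4. With normexp and quantile, and in the authors' deposited values, 0 of 9 were called, at a lowest adjusted p of 0.0514 (exact permutation test). The differences called above kept their direction. In so coarse a test the adjusted p turns on how many pairs reach the smallest possible p. A lost call therefore need not mean that the groups of a pair overlapped.

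Several probes of the same gene gave alike changes. In a number of these genes, among them Uqcrh, Uqcr10, Uqcr11, Uqcrb and Atp5l, probes overlap in position. Their agreement is then close to a repeated reading of the same stretch. For the 26 genes with more than 1 tested probe the median gap between the lowest and highest change was 0.04, the widest was 0.30 in Ndufb5, and none had probes called in opposite directions; in 17 genes all probes had the same call. Some probes instead followed the slide. A Cox7c probe at chr13:86184447-86184506 read 1.68, 1.65, 3.99 and 3.73 on control and 2.10, 3.51, 3.49 and 1.65 on knockdown arrays, high on the 4 arrays of slide 2 (controls 3 and 4, knockdowns 2 and 3) in both groups. The brighter Cox7c probe at chr13:86186301-86186360 stayed between 6.11 and 6.40 on all 8 arrays. The first 30 of the 60 bases of both are printed to show that they are different stretches, with 25.0% and 55.0% of G and C in the whole probes.
Cox7c, following the slide: aaagtttaagagatgatctgaaaattggat
Cox7c, brighter: tgtagaaaggagagttaggtggtacggcca

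A dimmer Atp5c1 probe behaved likewise, 1.71 higher on slide 2, and 7 of 122 member probes differed by over 0.5 in this way. Among tested genes with a single probe this touched Atp5o, at 3.79, 3.86, 4.70 and 4.69 on control and 3.92, 4.35, 4.25 and 3.57 on knockdown arrays, as well as Ndufa8 and Cox8c, and none of the 3 was called. The brightest Cox5b probe was placed on chromosome 15 and 2 of 3 Atp5k probes on chromosome Y, away from their genes, so other transcripts could add to them. On the arrays of slides 1 and 3 alone 11 subunits were called higher and 3 lower, and on those of slide 2 alone 5 and 12; Ndufab1, Sdha, Ndufa7, Ndufa4l2, Cox7a2l, Cox6b2 and Atp5g3 were called in both.

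Of the 7 genes taken by the patterns that are no subunits, 2 rose and 3 fell, beside 29.1% higher and 28.5% lower among all tested genes. Atp5s was at -1.28 ± 0.06 (SD, n = 4) on control and 0.00 ± 0.12 on knockdown arrays, a rise of 2.42-fold (limma adjusted p = 4.07e-06). The complex I assembly factors Ndufaf4, Ndufaf2 and Ndufaf1 changed by -0.92, -0.75 and -0.70, and each stayed called lower in all 20 alternative fits. A second Ndufaf4 probe gave -0.88. Ndufaf3 rose by 0.33, a call lost in 11 of the 20.

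Other genes of the pathway were counted from lists. Of 11 mitochondrially encoded transcripts 8 fell and 1 rose, beside 28.5% lower and 29.1% higher among all genes. CYTB of complex III fell by 1.08, ND3, ND4L, ND1, ND2, ND4 and ND5 of complex I by 0.99, 0.79, 0.78, 0.67, 0.56 and 0.45, and ATP8 of complex V by 0.88, while COX1 of complex IV rose by 0.31 and COX2 (0.11) and COX3 (-0.12) were not called. The call of COX1 was lost under each of the 4 other scalings, and without control 1, knockdown 1, knockdown 3 or knockdown 4. The files place COX2, COX3, ND3, ND4L and ATP8 on a copy of mitochondrial DNA in chromosome 1, so the source of their signal is not certain.

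Of 43 tested assembly factors 12 rose and 15 fell, with Sco2 (-0.91), for complex IV, and Tmem186 (-0.86), for complex I, among the falls. Of 4 genes around cytochrome c, the testis form Cyct rose by 1.16 and the haem lyase Hccs by 0.63, while Cycs (0.12) and Cyc1 (-0.19) were not called. Cyc1 is a subunit of complex III outside the name patterns, so it is not in the counts and medians of that complex. Of 12 ubiquinone genes 3 rose and 6 fell: Coq8a rose by 2.49, and Pdss1 and Coq4 changed by -1.29 and -1.30. Of 19 tricarboxylic acid cycle genes, pyruvate dehydrogenase included, 8 fell and none rose, among them Pdhx (-1.34) and Dlat (-0.79). Beside the background of 29.1% higher and 28.5% lower, mitochondrial ribosome genes gave 14 higher and 33 lower of 77, with Mrpl24 at 0.92 and Mrpl3 at -0.97, and genes of protein import 5 and 11 of 30, with Grpel1 at 1.08 and Tomm40l at -1.51. Genes that maintain and transcribe mitochondrial DNA gave 3 and 8 of 17, with the RNA processing enzyme Elac2 at -1.97 and the transcription factor Tfam at -0.16.

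Among 13 tested regulators 5 rose and 5 fell. Nrf1, a transcription factor of many respiratory genes, was at 2.10 on control and 0.32 on knockdown arrays (means of 4), a change of -1.79 ± 0.06 (SE; limma adjusted p = 2.22e-07). Gabpb1 (-0.72), a subunit of another such factor that binds ETS sites, Pprc1 (-0.78) and Sirt1 (-1.29) fell, and Prkaa2 (1.69) and Yy1 (0.30) rose. Of 19 hypoxia targets 7 rose and 8 fell, beside the same background of 29.1% and 28.5%, among them Ndrg1 at 1.76 and Slc2a1 at -1.75. The part of any of these in the changes of subunits was not tested.

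The promoters were searched for the motifs of these factors. A promoter was found for 66 of the 80 subunit genes in the RefSeq table (GRCm38.p6), and the 250 bases before each start were read on both strands, counting a gene once over its starts. The NRF1 motif GCGCANGCGC was present in 13 of 66 subunit genes (19.7%), against 4.2% of all 27025 genes of the table. It was present in 3 of the 17 subunits called lower (Sdha, Ndufa5 and Ndufs5), 1 of the 13 called higher (Cox6a1) and 9 of the 36 not called. The ETS motif CCGGAAG was present in 12 of 66 (18.2%, against 7.8%), of which 1 fell and 4 rose, and the YY1 motif ATGGCGG in 4 (6.1%, against 2.6%). None of these motifs contains another. The hypoxia motif, CGTG with A or G before it, was in 34 of 66 (51.5%, against 41.5%), and TGATGNAA, bound by ATF4, in none, against 3.9%. A match is a description of the sequence and not a binding site.

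The promoters of 2 genes that fell and of 1 that rose are printed to show that the same motif stands in all. They are the 250 bases before the start, 5′ to 3′ on the gene's strand (minus for each), in GRCm38.p6: chr13:74350241-74350490 for Sdha, chr6:24527691-24527940 for Ndufa5 and chr5:115348959-115349208 for Cox6a1. Capitals mark the NRF1 matches (3, 1 and 2) and, in Cox6a1, 1 ETS match on the other strand near the end. Cox6a1 was the only 1 of the 13 subunits called higher with an NRF1 match. Its rise was called under only 1 of the 5 scalings.
Sdha: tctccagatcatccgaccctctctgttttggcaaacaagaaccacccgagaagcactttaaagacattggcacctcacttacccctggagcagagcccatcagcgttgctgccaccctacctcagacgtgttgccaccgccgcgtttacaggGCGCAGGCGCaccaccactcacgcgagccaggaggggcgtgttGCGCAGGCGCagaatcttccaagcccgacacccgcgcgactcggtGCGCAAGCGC
Ndufa5: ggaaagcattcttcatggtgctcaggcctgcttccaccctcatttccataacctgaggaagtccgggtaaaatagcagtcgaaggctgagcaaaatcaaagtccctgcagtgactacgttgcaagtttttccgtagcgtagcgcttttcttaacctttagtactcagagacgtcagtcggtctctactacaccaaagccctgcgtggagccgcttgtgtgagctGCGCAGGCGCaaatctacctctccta
Cox6a1: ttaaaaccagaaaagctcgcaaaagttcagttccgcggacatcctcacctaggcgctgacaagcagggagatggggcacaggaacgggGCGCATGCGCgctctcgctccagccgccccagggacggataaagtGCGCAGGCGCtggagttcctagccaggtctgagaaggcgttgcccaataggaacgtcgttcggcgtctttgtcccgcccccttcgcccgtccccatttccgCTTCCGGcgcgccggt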

How the data were processed

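The 8 samples were hybridised to 1-colour Agilent mouse arrays after oligo-dT amplification of 100 ng of total RNA and Cy3 labelling, per the labels. The deposited files give the intensity of each spot, which the authors extracted with Agilent Feature Extraction 10.7.3.1, per the file headers; this column is background corrected and not scaled between arrays. The authors' deposited value table holds log2 values whose making is not given in the sources used here; it served as an alternative. Here, spots of a probe were averaged without outlier spots, log2 was taken and each array's 75th percentile subtracted. Probes well above background on all 4 arrays of a group were tested two-sided with eBayes of limma 3.58.1 (R 4.3.3), adjusted over all tested probes; the brightest probe stands for a gene. The fit was tested on simulated data.

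Samples were grouped by their titles. Members, lists, pairs and motifs were chosen with earlier results of these data known. Named with values on each array are, in each complex, the 3 subunits called higher and the 3 called lower with the largest changes and groups that did not overlap, and every tested member of the isoform families; each list gave up to 3 called genes with the smallest p. Other genes were named after their values were seen. Names were updated through a RefSeq table (26300 probes by accession, 2044 by symbol, 355 by synonym, 26982 kept). Alternatives were other scalings and filters, slide or replicate number as a block, averaging of knockdown arrays whose file names share a number, and leaving out each array. Values of 1 member gene are not reported here singly; it stays in the counts and medians.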

Additional observations from a re-analysis of the deposited data

Results flagged for a closer look

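In 7 of 174 groups of 4 arrays (4.02%; chance gives about 1 in 20), 1 array stood far from the other 3, by Dixon's test of the gap against the range. All 7 are control groups. Control 3 was low for Ndufa11 (log2 signal 4.29, the others at least 4.50) and Cox6b1 (3.96, the others at least 4.21). It was high for Ndufs5 (5.87, the others at most 5.69), Sdhb (6.58, the others at most 6.37) and Cox5a (7.68, the others at most 7.41). Control 1 was low for Cox4i1 (7.81) and Atp5h (7.24, the others at least 7.38).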

How the results depend on the processing

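Among Dnajc2 and the genes taken by the name patterns, no called gene was called in the opposite direction in any alternative fit. For genes of the other lists and markers only counts were compared, so the direction of each was not followed. Medians of complexes did change sign with the scaling: that of complex I rose above 0 under 3 scalings, and those of complex III and of all subunits fell below 0 with median scaling. Of the called subunits, 5 of 19 higher and 9 of 20 lower kept their call in all 20 alternative fits. The few arrays limit precision, as do dim probes and probes that follow the slide. Array scaling is relative, so a shift shared by most transcripts cannot be told apart from it.

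In the values below, medians are changes on the log2 scale and the reference values are those of the report. Scaled by array medians, the medians of complexes I to V were -0.20, 0.026, -0.043, 0.0022 and -0.34, and that of all subunits -0.14; 5 subunits were higher, in complexes I to V 2, 0, 0, 3 and 0, and 2 of complex IV were lower. With quantile normalization, normexp with quantile, and the authors' table, the complex I median was 0.067, 0.064 and 0.033, with 11, 10 and 11 genes higher and 6, 7 and 7 lower; 11, 13 and 13 subunits were lower in all, 3 of complex II higher each time, and 0 of complex III lower. With no filter, 12 subunits were lower, 7 of complex I; complex III had 1 higher and 0 lower, and the complex IV median was 0.29. Complex II had 2 higher with probes above background on all 8 arrays, with a fit on genes and with the mean of a gene's probes, which left complex III 2 higher. Complex III also had 2 higher with slide as a block and with a random block on the file-name number. With knockdown pairs averaged, 12 subunits were lower, 7 of complex I, and complex III had 1 higher and 0 lower.

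Replicate numbers did not pair the samples: the same-number correlations of deviations were 0.11, -0.12, 0.11 and -0.19. With the replicate number as a block, 37 probes were called, 11 subunits were lower, 6 of them of complex I, and complex III had 1 higher and 0 lower.

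Within slides 1, 2 and 3 the median was 0.088, -0.14 and 0.041 for complex I, 0.22, 0.044 and 0.21 for complex III and 0.27, 0.077 and 0.34 for complex IV; for complex II it was 0.34 on slide 1, and for all subunits 0.15 on slide 1 and -0.0536 on slide 2. Fits on fewer arrays were chosen after seeing the data. On slides 1 and 3 only, 26 probes were called, with 11 subunits higher and 3 lower, 1 of complex I and 1 of complex V lower, 0 of complex II higher, and complex III at 1 higher and 0 lower. On slide 2 only, 26 probes were called, with 5 subunits higher and 12 lower, complex I at 2 and 6, complex III at 0 and 0, 0 of complexes II and V higher, and 3 of complex IV higher.

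Leaving out 1 array at a time, the complex I median ran from -0.10 (without control 1) to -0.0036. Counts ran from 1 to 3 higher in complex II (3 without control 3), from 1 to 4 higher in complex III (1 without control 1, control 2, knockdown 1 or knockdown 4, and 2 without control 4) and 0 to 1 lower (0 without control 2, control 3, knockdown 2 or knockdown 3), and from 0 to 1 lower in complex IV (1 without knockdown 1).

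The within-array differences between paired genes were recomputed under 4 other scalings, chosen after seeing the data. Of 36 values 20 stayed on their side of the threshold, 15 lost the call and 1 gained it. A lost call here need not mean that the groups overlapped, since the smallest possible p limits the adjusted p. No called difference changed direction; that of Cox8c and Cox8a, not called, went from 0.16 to -0.14 with normexp and quantile and to -0.16 in the authors' table.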
